A study of Ovis aries with 40 samples.

Results

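The thin filament regulators and light chains of the myofiber, that is the myosin light chains, the troponins and the tropomyosins, were followed in longissimus dorsi, the long muscle of the back, over 13 groups of Texel and Ujumqin sheep. Probes were taken when the array's gene name began with MYL, TNN or TPM or when its description named one of these proteins, and 2 more probes, for MYL6B and TPM2, were taken by the names that the study's additional files gave them after a search of human sequences. This gave 9 probes of 7 genes, out of 977 named genes (1605 named probes) and 15008 probes in all. The genes were MYL6B, MYL6, MYLPF (MYL11 in RefSeq), MYLK, TNNC2, TPM1 and TPM2. MYLK is the kinase that phosphorylates regulatory light chains and not a light chain itself, and it was kept because its name met the rule. Probes named for MYL1, MYL2, MYL3, MYL4, TNNC1, a troponin I, a troponin T, TPM3 or TPM4 were not found by the rule, so these isoforms were not analysed here.

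RNA of each animal was labelled with Cy3 and measured on a 1-colour sheep array. Texel, a heavily muscled breed, was sampled before birth, on days 70, 85, 100, 120 and also 135 after conception (T70 to T135), with 3 arrays a group and 4 at 100 d. Ujumqin, a less muscled Chinese breed, was sampled at the same 5 fetal ages (U70 to U135) and at birth, 1 month and 2 months (Ubirth, U1month and U2month), with 3 arrays a group. By the labels the dams were purebred, synchronised ewes inseminated with sperm of their own breed, and fetuses were taken by caesarean section from 3 ewes a stage, so that at 100 d some of the 4 Texel fetuses would share a ewe. The labels do not tie a fetus to a ewe, and p-values measure the spread between these animals.

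Myosin light chains clasp the lever arm of the myosin heavy chain, where essential chains stiffen it and regulatory chains tune the crossbridge. Troponin and tropomyosin lie on the actin filament, and calcium bound by troponin C moves tropomyosin away from the myosin binding sites. In developing muscle each of these proteins is exchanged for other isoforms as primary and secondary fibers mature into fast and slow types. A whole muscle piece was measured, so that fewer cells of a type and less RNA per cell cannot be told apart.

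The target sequences matter here because a signal is only as specific as its 60 bases. The MYL6B and MYLPF probes hold the polyadenylation signal AATAAA at base 36, which is found in 845 of the 15008 probes (5.63%), and bases 24 to 53 of both are printed with that signal in capitals. The troponin C probes are the same stretch moved by a single base, with the 59 shared bases in capitals, and serve below as a check of the quantile scale. The tropomyosin probes are printed whole because the name of the TPM2 probe rests on an expressed sequence tag. That of the MYL6B probe does too, and whether either probe detects the gene it is named for, and that gene alone, was not tested.
MYL6B (A_70_P018086): ctattgtttcaaAATAAAgagacgtttcct
MYLPF (A_70_P069001): cccacccagactAATAAAttgaaagggtct
TNNC2 probe 1 (A_70_P029961): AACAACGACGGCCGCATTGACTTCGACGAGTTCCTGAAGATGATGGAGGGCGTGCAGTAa
TNNC2 probe 2 (A_70_P029962): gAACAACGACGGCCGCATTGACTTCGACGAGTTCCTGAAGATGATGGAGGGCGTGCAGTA
TPM2 (A_70_P033031): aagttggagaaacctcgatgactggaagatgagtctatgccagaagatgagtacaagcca
TPM1 (A_70_P024291): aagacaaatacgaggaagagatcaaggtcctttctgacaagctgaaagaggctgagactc
The array files name no genome build, and genome positions of the probes are therefore not given.

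All 9 probes were well above background on 40 of 40 arrays, and no spot was saturated. Signals are given as log2 of the quantile-normalized value, in which every array is forced to the same distribution, and a difference of 1 is a 2-fold difference. The arrays came from 5 slides, and 70 d and 135 d shared no slide in either breed: T70 was on slide 1, U70 on slide 2, T135 on slides 4 and 5, and U135 on slide 5. U70 and U85 were both on slide 2, and U135 and U2month both on slide 5. Age and slide can therefore be told apart only between groups that shared a slide or through groups split over 2 slides. Of the markers of skeletal muscle, 5 of 11 genes were on the array and their summed signal was 16.43 to 17.04 at T70, 18.19 to 18.63 at T135, 16.39 to 16.98 at U70, 18.22 to 18.67 at U135 and 19.34 to 19.82 after birth. The list did not move as a whole: from 70 to 135 d MYH1 and MB rose in both breeds, MYF5 fell by 1.73 and 2.09 in Texel and by 2.54 and 2.33 in Ujumqin on its 2 probes, and MYOD1 and 1 of 2 MYOG probes were 0.75 to 0.96 lower, which passed in all but 1 MYOD1 probe in Ujumqin (adjusted p = 0.064, limma).

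The tropomyosins and MYL6B changed over the fetal ages, while MYLPF, troponin C, MYL6 and MYLK did not pass over that span in either breed. Over the fetal stages of Texel, 3 of 9 probes passed the F test of limma (adjusted p under 0.05), against 52.0% of the 14480 probes tested. These were MYL6B (adjusted p = 8.94e-08), TPM1 (adjusted p = 5.94e-06) and TPM2 (adjusted p = 4.00e-05). Over the 8 Ujumqin groups 4 of 9 passed, against 79.8% of all, namely TPM1 (adjusted p = 4.25e-10), MYL6B (adjusted p = 2.01e-05), MYL6 (adjusted p = 0.016) and TPM2 (adjusted p = 0.040). Neither count stood above the share of the whole array. MYL6B and TPM2 owe their names to a breed difference at the youngest age. Arrays that helped to choose these genes thus enter the F test of each breed. The p-values of MYL6B and TPM2 are therefore not those of genes chosen beforehand. The TPM2 call in Ujumqin was lost when any of 8 single arrays was left out, with adjusted p between 0.023 and 0.14 over 24 such fits, and under normexp background (adjusted p = 0.060) and slide as a random block (adjusted p = 0.059), and the MYL6 call was lost without the U2month array of replicate 3 (adjusted p = 0.067).

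**Figure D1:**
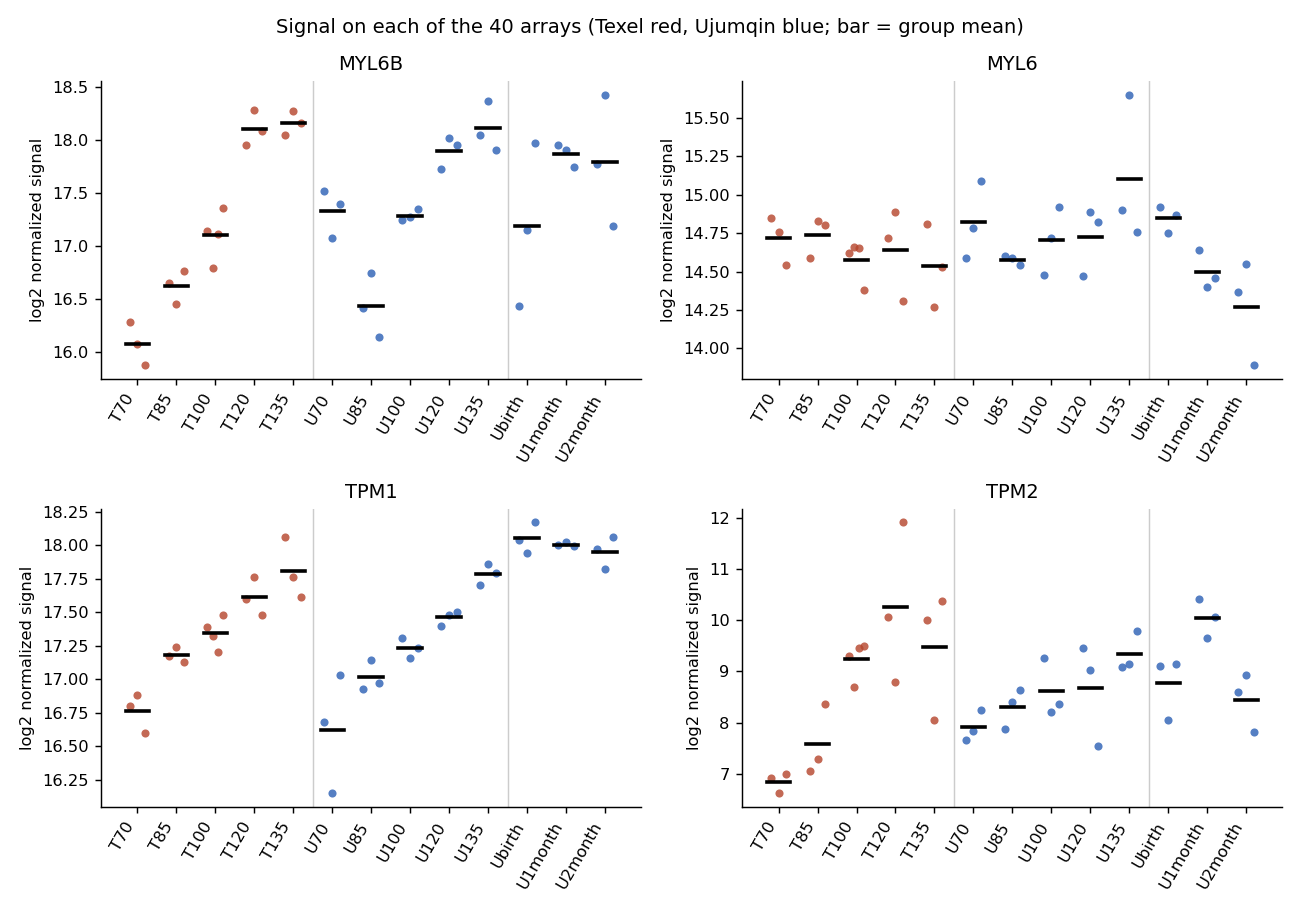
Log2 quantile-normalized signal of MYL6B, MYL6, TPM1 and TPM2 on each of the 40 arrays, by group, with Texel in red, Ujumqin in blue and a bar at the group mean. The vertical axes differ between panels: MYL6B, TPM1 and TPM2 lie higher at 135 d than at 70 d in both breeds without overlap, and MYL6 stays between 13.89 and 15.65.

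From 70 to 135 d the same 3 probes rose in each breed and none fell, with the TPM2 call in Ujumqin close to the threshold. In Texel 3 of 9 rose, against 20.4% of all probes, and 0 fell, against 22.7%. In Ujumqin 3 of 9 rose, against 18.6%, and 0 fell, against 21.0%. The median change of the 9 probes was 0.34 in Texel and 0.56 in Ujumqin, and that of all probes was -0.05 and -0.04. TPM2 and MYL6B owe their names to their difference between the breeds at 70 d, so the changes within 1 breed of these genes start from arrays that helped to choose them.

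MYL6B, an essential (alkali) light chain of slow skeletal and nonmuscle myosin, stood at 16.28, 16.07 and 15.87 in T70 and at 17.52, 17.07 and 17.40 in U70. In T85 the arrays read 16.65, 16.45 and 16.76, and in T100 they read 17.14, 16.79, 17.11 and 17.36. Each of these Texel groups lay above the one before without overlap. T120 read 17.95, 18.28 and 18.09, and T135 read 18.05, 18.27 and 18.16. The step from 100 to 120 d was 1.01, a 2.01-fold difference without overlap, and that from 120 to 135 d was 0.05 with overlap, so most of the gain in Texel lay before 120 d. In Ujumqin the arrays read 16.41, 16.74 and 16.14 at U85, 17.24, 17.27 and 17.35 at U100, and 17.73, 18.02 and 17.95 at U120. U135 read 18.05, 18.37 and 17.91. U85 lay 0.90 below U70 (1.87-fold), on the same slide and without overlap, a difference noticed after the values were seen and given with no test. The U70 arrays helped to choose this probe, by standing above T70, so a low point at 85 d is not read from it.

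The rise of MYL6B from 70 to 135 d was 2.09 in Texel (SE 0.26, 4.25-fold, adjusted p = 1.41e-07, limma) and 0.78 in Ujumqin (SE 0.26, 1.72-fold, adjusted p = 0.017). Leaving out U70 replicate 2 or U135 replicate 2 brought the Ujumqin change to 0.65 and ended the call (adjusted p = 0.086 and 0.085). With slide as a fixed factor, an alternative chosen after the data were seen, the changes were 1.67 (adjusted p = 0.28) and 0.52 (adjusted p = 0.77), and the calls over all probes fell from 6238 to 255 in Texel and from 5733 to 539 in Ujumqin.

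After birth MYL6B spread widely. Ubirth read 16.43, 17.15 and 17.97, U1month 17.95, 17.91 and 17.75, and U2month 17.77, 18.43 and 17.19. The newborn arrays ranged from the level of U85 to that of U120. MYL6B fell by 0.93 from 135 d to birth (SE 0.26, 1.90-fold, adjusted p = 0.0049, limma), the 1 member of 9 that passed, against 42.9% of all probes, although the groups overlapped. Without Ubirth replicate 1 the difference was -0.55 (adjusted p = 0.079), and under 75th percentile scaling, which sets only that percentile equal between arrays, it was -0.43 (adjusted p = 0.23). In the same step that scaling called TPM1 in place of MYL6B, at 0.66 (adjusted p = 0.0061). In order of the 13 group means MYL6B ran from T70 (16.07) through U85 (16.43), T85 (16.62), T100 (17.10), Ubirth (17.18), U100 (17.29), U70 (17.33), U2month (17.80), U1month (17.87), U120 (17.90), T120 (18.11) and U135 (18.11) to T135 (18.16). Of the 12 neighbouring pairs in this order 11 overlapped, the exception being T85 and T100.

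The TPM2 probe, named for the beta tropomyosin, was the dimmest and most variable member, with a rank among the 15008 probes between 3233 and 10201. T70 read 6.92, 6.62 and 7.0, T85 read 7.06, 7.29 and 8.37, and T100 read 9.31, 8.69, 9.45 and 9.50. The difference between T85 and T100 was 1.66 (3.17-fold) without overlap. T120 read 10.07, 8.79 and 11.92, and T135 read 10.01, 8.06 and 10.37. The late Texel groups were wide, and both T120 and T135 overlapped with T100. U70 read 7.65, 7.83 and 8.25, U85 read 7.88, 8.41 and 8.63, and U100 read 9.27, 8.21 and 8.37. U120 read 9.45, 9.02 and 7.55, and U135 read 9.08, 9.15 and 9.80. Each fetal Ujumqin group overlapped with the one before.

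TPM2 rose by 2.63 from 70 to 135 d in Texel (SE 0.58, 6.20-fold, adjusted p = 0.00045, limma), and by 2.19 to 3.34 when single arrays were left out. Over the other settings the Texel change was 1.65 to 2.64. In Ujumqin it rose by 1.43 (SE 0.58, 2.70-fold, adjusted p = 0.048), a call that each of the 6 fits without 1 array of these groups ended, at 1.21 to 1.60 with adjusted p from 0.057 to 0.16. It was also lost under 75th percentile scaling (1.36, adjusted p = 0.063), normexp background (1.11, adjusted p = 0.055), a floor of 16 (adjusted p = 0.052), fetal arrays normalized alone (adjusted p = 0.063) and slide as a random block (adjusted p = 0.055). With slide as a fixed factor the changes were 2.41 (adjusted p = 0.53) and 2.67 (adjusted p = 0.37). The summed signal of 4 of 7 leukocyte markers was 12.04 to 12.84 on T100 replicate 4, T120 replicates 2 and 3 and T135 replicate 3 and at most 10.88 on the other fetal arrays, and its part in the TPM2 signal was not tested. TPM2 read 9.50, 8.79, 11.92 and 10.37 on those 4 arrays. Its correlation with that sum over the 40 arrays was 0.44, and with the skeletal muscle sum 0.41. The leukocyte list did not move as a whole. From 70 to 135 d in Texel LYZ rose by 2.23 and 2.47 on its 2 probes. CD14 differed by -0.11 and -0.24, CD3E by -0.22 and 0.99 and CD4 by -1.12 and 0.13, none of which passed.

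After birth TPM2 read 9.10, 8.06 and 9.14 in Ubirth, 10.41, 9.65 and 10.07 in U1month and 8.59, 8.93 and 7.82 in U2month. U1month stood above both its neighbours without overlap. Neither step passed: the difference from birth to 1 month was 1.28 (SE 0.58, adjusted p = 0.11, limma) and that from 1 to 2 months was -1.60 (SE 0.58, adjusted p = 0.082). From birth to 1 month 0 of 9 members passed, against 21.0% of all probes, and 2, MYL6B and TPM2, were under 0.05 before adjustment, against 34.2%. MYL6B was 0.69 higher at 1 month than at birth (adjusted p = 0.058). From 1 to 2 months 0 of 9 passed, against 7.58%, and 1, TPM2, was under 0.05 before adjustment, against 23.5%. In order of group means TPM2 ran from T70 (6.84) through T85 (7.57), U70 (7.91), U85 (8.31), U2month (8.45), U100 (8.62), U120 (8.67), Ubirth (8.77), T100 (9.24), U135 (9.34), T135 (9.48) and U1month (10.04) to T120 (10.26). Here too 11 of 12 neighbouring pairs overlapped, the exception being T70 and T85.

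TPM1, the alpha tropomyosin of fast fibers and the heart, had the tightest groups of the 4 members described by array, with a median SD within a group of 0.12 against 0.20 for MYL6B, 0.22 for MYL6 and 0.57 for TPM2. T70 read 16.80, 16.88 and 16.60, T85 17.17, 17.24 and 17.13, and T100 17.39, 17.32, 17.20 and 17.48. T120 read 17.60, 17.76 and 17.48 and T135 18.06, 17.76 and 17.61. The Texel mean was higher at each later age. U70 read 16.68, 16.15 and 17.03, U85 16.93, 17.14 and 16.97, and U100 17.31, 17.16 and 17.23. U120 read 17.40, 17.48 and 17.50 and U135 17.70, 17.86 and 17.79. From 85 d on each Ujumqin group lay above the one before without overlap. Ubirth read 18.04, 17.94 and 18.17, U1month 18.00, 18.02 and 17.99, and U2month 17.97, 17.82 and 18.06, a plateau from birth on. Of the 12 neighbouring pairs in the order of its group means, from U70 (16.62) to Ubirth (18.05), 11 overlapped, the exception being T70 and U85.

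The rise of TPM1 from 70 to 135 d was close in both breeds, 1.05 in Texel (SE 0.15, 2.07-fold, adjusted p = 8.65e-07, limma) and 1.16 in Ujumqin (SE 0.15, 2.24-fold, adjusted p = 1.75e-07). With slide as a fixed factor the Texel change was 1.48 (adjusted p = 0.053) and the Ujumqin change was 1.64 (adjusted p = 0.012). Under 75th percentile scaling the changes were 1.78 and 1.71. From 135 d to 2 months, between groups that shared a slide, the difference was 0.17 (adjusted p = 0.41). Over the 40 arrays TPM1 correlated with the summed skeletal muscle markers at 0.87 and with those of connective tissue, 3 of 6 genes, at -0.83. Connective tissue sums were 18.10 to 18.70 in T70, 17.36 to 17.74 in T135, 17.91 to 18.45 in U70 and 17.30 to 17.42 in U135, and their part in the TPM1 signal was not tested. A pair of unnamed probes of tags that the array also lists for TPM1 diverged. One (A_70_P001771) rose by 1.80 in Texel and 1.76 in Ujumqin, with a correlation of 0.98 with TPM1 over the 13 group means, and the other (A_70_P048206) differed by -0.01 and 0.25, with a correlation of -0.39. Whether they detect other TPM1 transcripts was not tested.

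MYL6, the essential light chain of smooth muscle and nonmuscle myosin, did not pass from 70 to 135 d on this scale, and its lowest means were those of U1month and U2month. T70 read 14.85, 14.76 and 14.54, T85 14.59, 14.83 and 14.80, and T100 14.62, 14.66, 14.65 and 14.38. T120 read 14.72, 14.89 and 14.31 and T135 14.81, 14.27 and 14.53. All 5 Texel groups overlapped, and the change from 70 to 135 d was -0.18 (SE 0.20, adjusted p = 0.49, limma) and turned to 0.11 under 75th percentile scaling (adjusted p = 0.70). U70 read 14.59, 14.78 and 15.09, U85 14.60, 14.59 and 14.54, and U100 14.48, 14.72 and 14.92. U120 read 14.47, 14.89 and 14.82 and U135 14.90, 15.65 and 14.76. The Ujumqin change was 0.28 (SE 0.20, adjusted p = 0.27), and 0.01 without U135 replicate 2. Under 75th percentile scaling it was 0.58 and passed (adjusted p = 0.028). Ubirth read 14.92, 14.75 and 14.87, U1month 14.64, 14.40 and 14.46, and U2month 14.37, 14.55 and 13.89.

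From 135 d to 2 months MYL6 fell by 0.83 (SE 0.20, 1.78-fold, adjusted p = 0.0016, limma), within slide 5 and without overlap of the groups. It was the 1 member of 9 that passed, against 33.4% of all probes. The call held under 13 other settings and in the 6 fits without 1 array of these groups, at -1.0 to -0.56. U1month also lay below Ubirth without overlap, by 0.34 (adjusted p = 0.22). In the order of its 13 group means, from U2month (14.27) to U135 (15.10), all 12 neighbouring pairs overlapped. The smooth muscle marker on the array, CNN1 (1 of 5), differed by -0.07 over the same step (adjusted p = 0.94). The HBB probes of the erythroid list (1 of 7 genes) changed by -6.27 and -5.31, and over the 40 arrays the erythroid sum correlated with MYL6 at 0.45. Its part in the MYL6 signal was not tested.

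MYLPF, the fast skeletal regulatory light chain, and TNNC2, the calcium-binding troponin C of fast fibers, were already among the brightest signals of the muscle at 70 d. TNNC2 probe 2 ranked 1 to 6 of 15008 on every array, TNNC2 probe 1 ranked 1 to 16 and MYLPF ranked 2 to 29. Group means were 18.85 to 18.99 for TNNC2 probe 2, 18.65 to 18.97 for probe 1 and 18.45 to 18.77 for MYLPF. Over all 40 arrays their values spanned 0.29, 0.53 and 0.64, since quantile normalization gives the brightest ranks the same value on every array. None of these 3 probes passed a test across the stages on that scale.

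Under 75th percentile scaling these same probes stood higher at 135 d than at 70 d. Their signals before scaling showed no such rise in Texel. TNNC2 probe 2 read 595270, 475133 and 521906 in T70 and 591661, 478078 and 492649 in T135 before scaling. TNNC2 probe 1 read 461132, 496164 and 416441, then 348328, 411188 and 439687. MYLPF read 457461, 417844 and 381141, then 543034, 374736 and 367027. The median signal of the arrays was 570.4 to 708.3 in T70 and 233.6 to 299.1 in T135. Under 75th percentile scaling all probes of an array are divided by the same factor. A scaled log2 change is thus the unscaled one shifted by the factors of the arrays. In Texel the scaled TNNC2 probe 1 rose by 0.75 (1.68-fold, adjusted p = 0.00096, limma), TNNC2 probe 2 by 0.92 (1.89-fold, adjusted p = 0.00020) and MYLPF by 0.96 (1.94-fold, adjusted p = 0.00036). In Ujumqin only TNNC2 probe 1 of the 3 passed, at 0.49 (1.40-fold, adjusted p = 0.028), while TNNC2 probe 2 stood 0.46 higher (adjusted p = 0.053) and MYLPF 0.30 higher (adjusted p = 0.26). Newborn and older lambs had means of 19.39 to 19.56 for probe 1, 19.52 to 19.64 for probe 2 and 19.22 to 19.36 for MYLPF on that scale, against 18.76, 18.80 and 18.64 in U70 of the same breed. Counted under this scaling, 6 of 9 members rose in Texel from 70 to 135 d, against 18.5% of all probes, and 4 of 9 rose in Ujumqin, against 18.4%. The 4 were TPM1, MYL6B, TNNC2 probe 1 and MYL6 (0.58, adjusted p = 0.028). The median over all probes shifted by -0.18 in Texel and -0.07 in Ujumqin under it, and that of the members was 0.92 and 0.58.

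The troponin C pair gave a check of the quantile scale alone. The sequences overlap in 59 of 60 bases, and over the 40 arrays the probes correlated at 0.10 after quantile normalization and at 0.89 after 75th percentile scaling. That scaling divides both probes of an array by the same factor, which by itself makes bright and steady probes move together. The 0.89 is therefore no sign that it measures troponin C better. The MYLK probes, of middling brightness and of 2 stretches of the same RNA, correlated at 0.94 on either scale. For TNNC2 and MYLPF a small change on the quantile scale is therefore no measure of how little they changed. Nor is the larger change on the other scale a measure of how much.

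**Figure D2:**
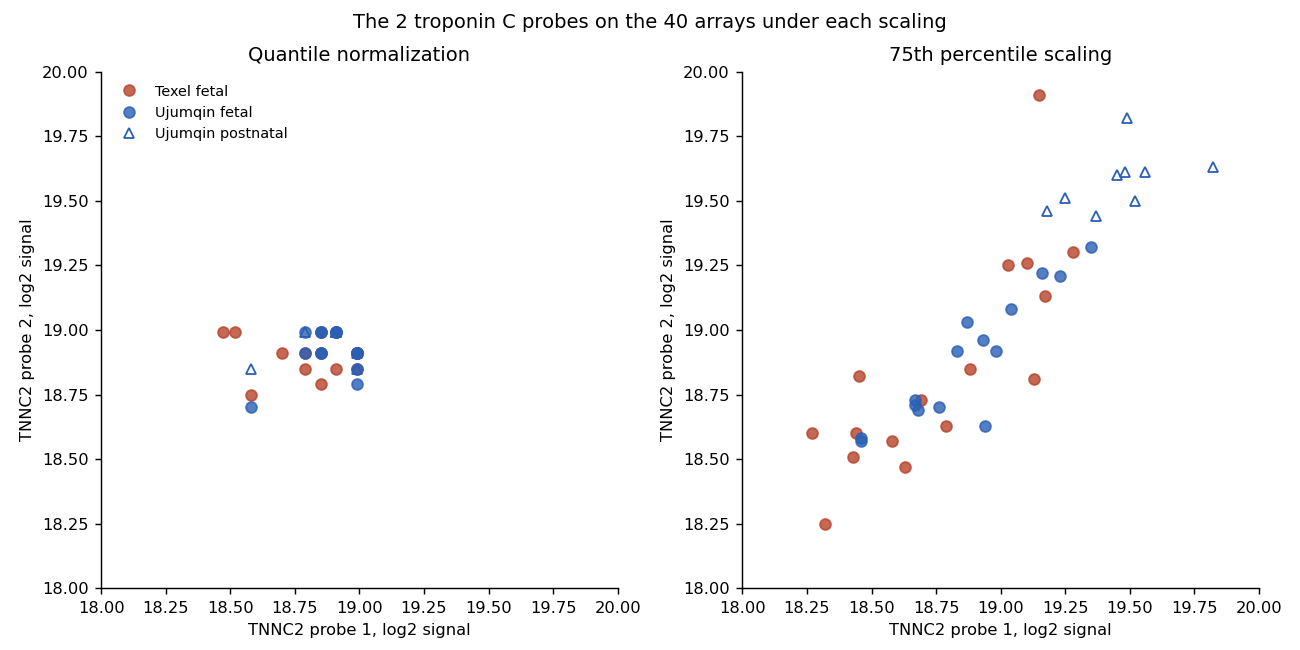
Log2 signal of TNNC2 probe 1 (horizontal) against TNNC2 probe 2 (vertical) on the 40 arrays, after quantile normalization (left, r = 0.10) and after 75th percentile scaling (right, r = 0.89), with Texel fetuses in red circles, Ujumqin fetuses in blue circles and lambs in open triangles. On the left the points are packed between 18.47 and 18.99, and on the right the 9 lambs lie at or above 19.18 on probe 1 and 19.44 on probe 2.

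MYLK, the myosin light chain kinase of smooth muscle and other cells, passed none of the tests across ages on either probe. Probe 1 ranged from 11.30 to 13.42 over the arrays with group means of 12.01 to 13.19, and probe 2 from 9.53 to 11.96 with means of 10.05 to 11.33. In newborns alone probe 1 read 13.42, 12.29 and 11.30. From 70 to 135 d probe 1 differed by 0.38 in Texel (adjusted p = 0.45, limma) and 0.57 in Ujumqin (adjusted p = 0.24), and probe 2 by 0.34 (adjusted p = 0.48) and 0.56 (adjusted p = 0.23). U120 had the highest mean of both probes and lay above U100 and U135 without overlap, by 0.55 and 0.49 for probe 1 and by 0.68 and 0.53 for probe 2. CNN1, the smooth muscle marker, fell by 1.56 in Ujumqin from 70 to 135 d (adjusted p = 0.012) and differed by -0.65 in Texel (adjusted p = 0.30), and its correlation with the MYLK probes over the arrays was -0.30 and -0.46.

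**Figure D3:**
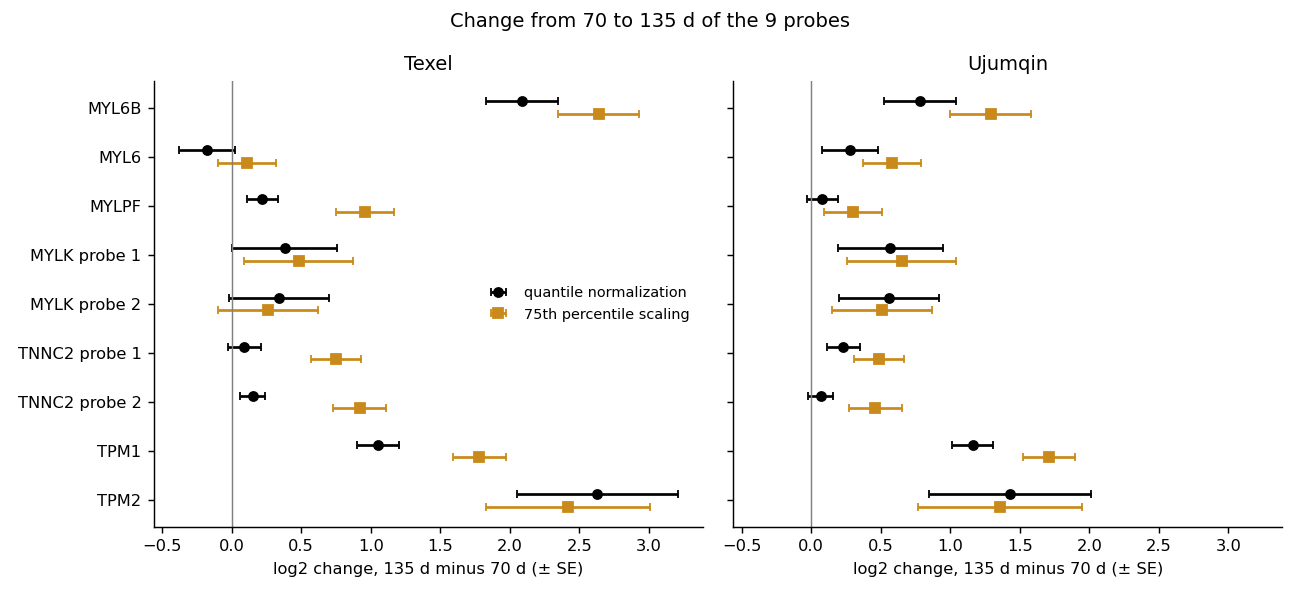
Change from 70 to 135 d of the 9 probes in Texel (left) and Ujumqin (right), as the log2 difference with its SE, after quantile normalization (black circles) and 75th percentile scaling (orange squares). TPM2, MYL6B and TPM1 lie right of 0 on both scales, and MYLPF and TNNC2 move away from 0 under 75th percentile scaling alone.

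Whether the members changed unequally was asked of the ratio of 2 probes on the same array, averaged over the breeds. That average does not use the difference between the breeds at 70 d. Over 400 arrangements of the age labels within breed, the exact permutation test (two-sided) was run for 3 pairs. Only TPM2 to TPM1 was planned. The 2 pairs with MYL6B were added after seeing the data and which genes had probes, so their p-values are not those of a planned test. The log2 ratio of MYL6B to MYL6 read 1.43, 1.31 and 1.33 in T70 and 3.24, 4.00 and 3.63 in T135. It read 2.93, 2.29 and 2.31 in U70 and 3.15, 2.72 and 3.16 in U135. The Texel arrays of the 2 ages did not overlap, and the Ujumqin arrays did. The averaged change was 1.38 (2.61-fold, exact permutation p = 0.0100, adjusted p = 0.0150), made of 2.27 in Texel and 0.50 in Ujumqin, so that MYL6B gained on MYL6.

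The ratio of MYL6B to MYLPF read -2.23, -2.51 and -2.40 in T70 and -0.86, -0.34 and -0.33 in T135. It read -1.06, -1.54 and -1.30 in U70 and -0.62, -0.38 and -0.79 in U135. The ages did not overlap in either breed. The averaged change was 1.28 (2.44-fold, exact permutation p = 0.00500, the smallest the 400 arrangements can give, adjusted p = 0.0150). It was 1.34 under 75th percentile scaling. That scaling divides both probes of an array by the same factor and leaves their ratio as it was before scaling. Before scaling MYLPF read 339717 to 560553 over all arrays, and MYL6B read 66318 to 345552. The ratio thus mainly followed MYL6B, and its scaled value is no separate check of unequal change. Whether MYLPF was held near the top of the scale before scaling too was not tested.

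The ratio of TPM2 to TPM1 read -9.88, -10.27 and -9.60 in T70, -8.06, -9.70 and -7.24 in T135, -9.03, -8.32 and -8.78 in U70 and -8.61, -8.71 and -7.99 in U135. Young and late arrays overlapped in both breeds. Its change of 0.93 did not pass (exact permutation p = 0.0650, adjusted p = 0.0650), and it was 0.15 under 75th percentile scaling (exact permutation p = 0.740). Without T135 replicate 2 it was 1.27 (exact permutation p = 0.0200) and without U70 replicate 2 it was 1.03 (exact permutation p = 0.0300). From 135 d to 2 months the ratios differed by -1.06 for TPM2 to TPM1, 0.52 for MYL6B to MYL6 and -0.25 for MYL6B to MYLPF (exact permutation p = 0.10, 0.10 and 0.60), in a design of 3 against 3 that cannot go below 0.1.

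**Figure D4:**
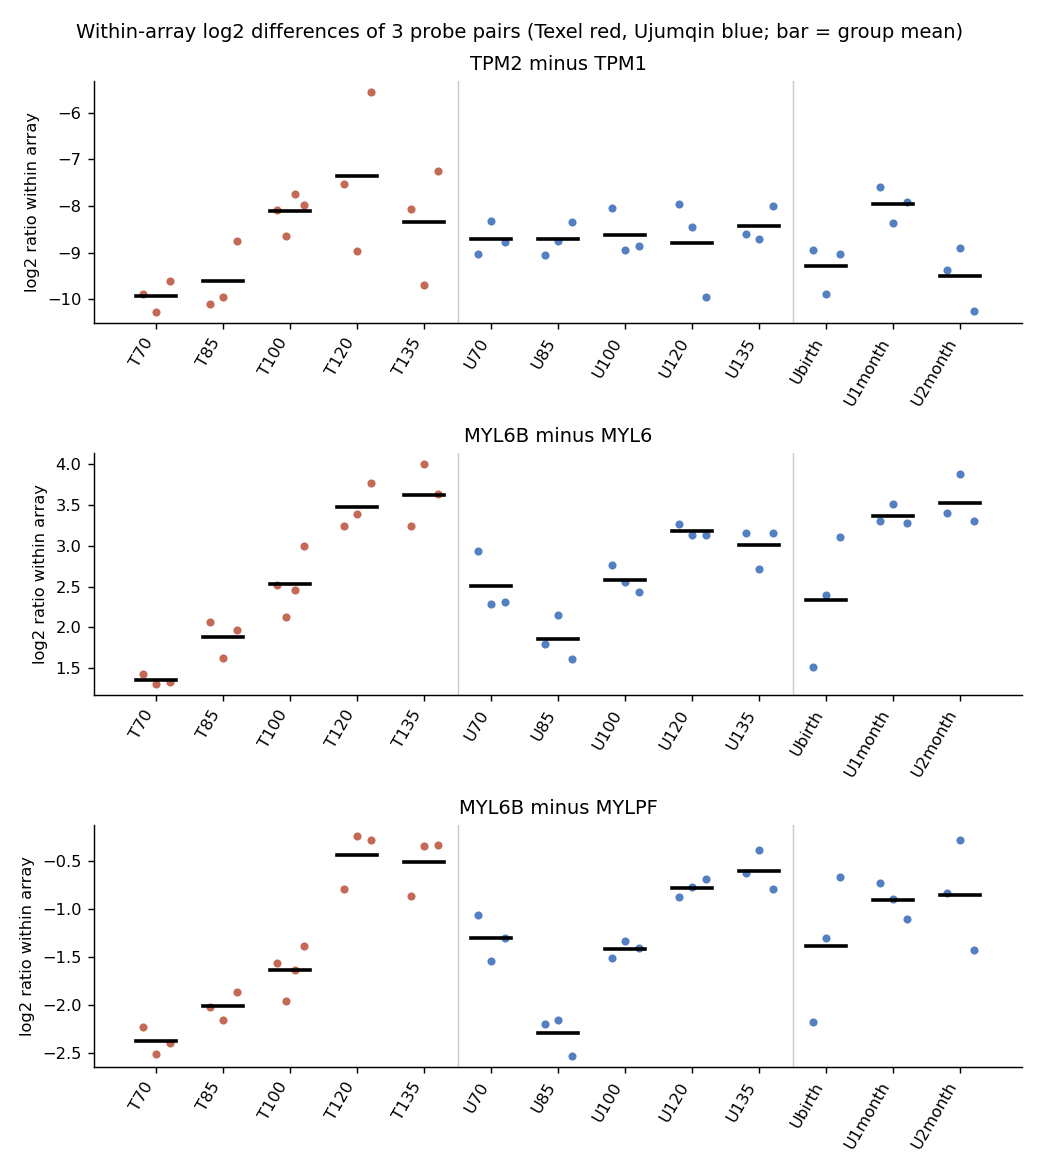
Within-array log2 ratio of TPM2 to TPM1, MYL6B to MYL6 and MYL6B to MYLPF on each array, by group, with Texel in red, Ujumqin in blue and a bar at the group mean. The means of both MYL6B ratios are lowest in T70, and in Ujumqin they are lower at U85 than at U70 and U100. The T70 and U70 arrays helped to choose the MYL6B probe.

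Between the breeds no member passed at any age. At 70 d 0 of 9 passed, against 0.117% of all probes, and 2 were under 0.05 before adjustment, against 17.2%. These were MYL6B and TPM2, whose names came from that very difference, so that nothing is read from it. For MYL6B the Texel arrays at 70 d all lay below the Ujumqin arrays, and for TPM2 likewise. At 85 d 0 of 9 passed, against 0.0207%, and 0 were under 0.05 before adjustment, against 13.3%. At 100 d the counts were 0 and 0, against 0.0138% and 13.3%. At 120 d they were 0 and 0, against 0.0345% and 10.6%, and at 135 d 0 and 0, against 0.0207% and 6.06%. The methods' t-test at each age, after Benjamini-Hochberg adjustment, also called 0 of 9.

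After 70 d the MYL6B means of the breeds lay close, with a Texel minus Ujumqin difference of 0.19 on day 85, -0.19 on day 100, 0.21 on day 120 and 0.05 on day 135 (adjusted p = 0.66, 0.60, 0.70 and 0.98, limma). For TPM2 the difference was -0.73 on day 85 (adjusted p = 0.43), 0.62 on day 100 (adjusted p = 0.42), 1.58 on day 120 (SE 0.87, 3.00-fold, adjusted p = 0.54) and 0.14 on day 135 (adjusted p = 0.98). The groups of both breeds overlapped in TPM2 at each of these ages. On arrays that shared a slide the TPM2 difference was 0.07 on day 85 (1 against 3), -0.06 on day 100 (3 against 1), 1.68 on day 120 (2 against 3) and -0.13 on day 135 (2 against 3). By the labels all Texel fetuses at 120 d were male and all Ujumqin fetuses female, and breed and sex cannot be told apart there. The sexes were also uneven at 135 d, with 2 males and 1 female in T135 and 3 females in U135. U70 held 2 males and 1 female. With sex as a covariate the TPM2 difference on day 135 was -1.28, which only sets the 1 female of T135 (8.06) against the U135 mean (9.34). None of the 9 members passed the F test of a breed difference that changes between ages, against 0.207% of all probes. That does not show that the difference stayed the same. Before adjustment 2 were under 0.05, against 13.5%, again MYL6B (adjusted p = 0.15) and TPM2 (adjusted p = 0.27), whose 70 d arrays enter this test too.

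Of 39 other genes of the sarcomere and its calcium control, 4 had a named probe, with 5 probes in all, and 5 of 5 rose from 70 to 135 d in each breed. They were named in the study's files from these same samples, which makes them no independent evidence of direction. MYH1, a fast myosin heavy chain, rose by 9.09 and 6.90 on its 2 probes in Texel and by 9.48 and 7.70 in Ujumqin (adjusted p = 1.50e-15, 3.36e-14, 3.93e-16 and 2.54e-15, limma). ACTN3, the fast Z-disc actinin, rose by 6.0 and 7.63, TMOD4, which caps thin filaments, by 3.68 and 5.49, and CASQ1, the calcium store of the reticulum, by 2.28 and 3.86. The members' largest change, 2.63 for TPM2 in Texel, was smaller than all of these but that of CASQ1 in Texel. From 135 d to 2 months 1 of the 5 probes rose, TMOD4 by 0.97 (adjusted p = 0.0018).

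The other cell type lists had few genes measured here. In adipose tissue 4 of 7 genes were measured, with sums of 10.34 to 10.67 in T70, 12.39 to 12.51 in T135, 9.90 to 10.63 in U70 and 12.28 to 12.66 in U135, and over the 40 arrays these sums correlated with MYL6B at 0.67 and with TPM1 at 0.82. The members of the list went opposite ways: LPL and FABP4 rose in both breeds, both LEP probes fell (-0.89 and -1.11 in Texel, -0.91 and -1.09 in Ujumqin) and SCD did not pass (-0.45 and -0.13). Their part in the rises was not tested. CD4, a T helper cell marker, was well above background on 4 or 5 of 40 arrays by probe. No probe of the lists of cardiac muscle, endothelium or nerve was found by the names used here. The study also names probes for STMN2 of the nerve list and for CD8A and CD48 of the leukocyte list, which were not used. Of the skeletal muscle list, MYOG, MYOD1, MYF5, MB and MYH1 were measured.

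Among 1528 named probes the 5 whose 13 group means were most like MYL6B were EP4d (r = 0.93), PTGFR, the prostaglandin F receptor (0.90), TRPM7, a cation channel kinase (0.89), PDGFB, a growth factor (0.89), and TLR3, a sensor of double-stranded RNA (0.89). For TPM2 they were SLC2A5, a fructose transporter (0.89), 2 probes of CD9, a membrane protein (0.88 each), HSD11B1, which makes active glucocorticoid (0.87), and TLR3 (0.87). TLR3 was in both lists. MYL6B and TPM2 correlated at 0.79 with each other, at 0.67 and 0.70 with TPM1, and at -0.05 and -0.13 with MYL6. The points share arrays, ages and slides, so these are descriptions of likeness over 13 means.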

How the data were processed

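Agilent sheep arrays of 40 animals in 13 groups were used. Per the file headers the authors had read the spots with Agilent Feature Extraction (10.5 in the submitters' processing notes), which subtracted background, and the deposited value of each spot was a linear intensity. A deposited table of log2 values, which the authors had quantile-normalized with a median of 8.615 on every array, served as an alternative. Here the intensity of each probe was averaged over its spots without control or outlier spots, quantile-normalized over the 40 arrays, floored at 1 and taken to log2. The 14480 of 15008 probes that 1 array or more measured well above background were tested with limma 3.58.1 in R 4.3.3 (lmFit, eBayes), with a mean for each of 13 groups and 27 residual degrees of freedom, and adjusted by the Benjamini-Hochberg method over all of them, passing under 0.05. One probe lacked a value in a group and left 14479 in the comparisons that used it. Breeds were compared in a fit of each age alone, as the study's methods do. Groups came from the sample labels, and the arrays' number limits precision.

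The members, gene lists and marker lists were chosen with earlier results of these data known. MYL6B, TPM2 and members that passed were described by array, other members by range, and outside them the 5 named probes most like MYL6B or TPM2 and the 5 sarcomere probes. Alternatives were 75th percentile scaling, normexp background (offset 50), the deposited table, a floor of 16, outlier spots kept, fetal arrays normalized alone, other filters, an intensity trend, array weights, sex, slide as a random block (correlation 0.04096), a replicate block, the methods' t-test and each array left out. Slide as a fixed factor and the MYL6B ratios were added after seeing the data. Ratios were tested with scipy 1.17.1. The statistics were tested on simulated data. No array of a group repeated another: over 42 pairs at most 1 value was identical, and the SD of their log2 difference was 0.42 to 0.99. Names were matched to RefSeq by symbol or accession for all 9 probes.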

Additional observations from a re-analysis of the deposited data

Results flagged for a closer look

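In the group of 4 Texel fetuses at 100 d, 1 array stood apart from the other 3 in 4 of the 9 probes, replicate 4 for MYL6 and replicate 1 for the others, by the gap to its nearest neighbour as a share of the whole range (critical value 0.829 for 4 samples, which chance passes in about 1 of 20 groups). For MYL6 that share was 0.884, with 1 array at 14.38 and the others at 14.62 to 14.66. The shares were 0.988 for MYLPF (18.70 against 18.75), 0.997 for TNNC2 probe 2 (18.85 against 18.91) and 1.000 for TNNC2 probe 1 (18.91 against 18.99). In these 3 probes the other arrays held tied quantile values, and the gaps were small.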

How the results depend on the processing

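Members passing moved with 2 settings above all. Under 75th percentile scaling 6 members passed the Texel stage test and 7 the Ujumqin one, 6 changed from 70 to 135 d in Texel and 1 from 1 to 2 months, and MYL6 turned to 0.11 in Texel. With slide as a fixed factor, added after seeing the data, 0 passed the Texel stage test, against 330 of 14480 probes. From 70 to 135 d 0 changed in Texel, against 255 of all probes, and 1 in Ujumqin, against 539. With that slide factor 0 changed from 135 d to birth. Values that did not pass turned under it: TNNC2 probe 1 to -0.04 in Texel, and MYLK probes 1 and 2, TNNC2 probe 2 and TNNC2 probe 1 to -0.49, -0.16, -0.06 and -0.09 in Ujumqin. TPM1 turned to -0.29 (135 d to birth), 0.08 (birth to 1 month) and 0.38 (1 to 2 months), MYL6 to 0.06 (1 to 2 months), and TPM2 between breeds to 0.13, 0.07 and -0.13 at 70, 85 and 135 d. TPM2 at 135 d also turned under normexp (-0.01), array weights (-0.28) and sex (-1.28), the last resting on 1 Texel female. The difference of breeds between ages had 1 member with fetal arrays normalized alone and 1 with array weights (MYL6B), and an intensity trend gave 1 from birth to 1 month. At 70 d a slide random block and a fit over all groups gave 1 member, and an unadjusted p under 0.05 with a 2-fold difference gave 2 by limma and 2 by the methods' t-test. Over the settings, calls among all probes ran from 196 to 6567 (135 d to birth) and from 0 to 3291 (birth to 1 month). They ran from 63 to 1693 (1 to 2 months) and from 2 to 325 (breeds between ages).

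With single arrays left out, members passing were 3 to 4 and 3 to 6 in the stage tests, 3 to 4 and 1 to 2 from 70 to 135 d in Texel and Ujumqin, 0 to 1 from 135 d to birth and 0 to 2 from birth to 1 month. Without Ubirth replicate 1 the latter was 2, and without replicate 3 it was 1 (MYL6B 1.08, adjusted p = 0.0042). Changes that crossed 0 were TNNC2 probe 2 in Ujumqin (-0.01 to 0.13), MYL6 from 135 d to birth (-0.43 to 0.02), TPM1 from birth to 1 month (-0.10 to 0.01) and from 1 to 2 months (-0.11 to 0.01), MYL6B from 1 to 2 months (-0.39 to 0.23), and TPM2 (-0.31 to 0.84) and MYL6B (-0.05 to 0.18) between breeds at 135 d. The ratio of TPM2 to TPM1 changed by 0.66 to 1.27, and that of MYL6B to MYLPF after 135 d by -0.54 to 0.04.

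Replicate numbers did not pair the samples: over 15 pairs of the same number the correlation of deviations was -0.31 to 0.10, and 4 of 15 matched their own number best. A replicate block left every count of members as it was, with 3 passing from 70 to 135 d in each breed and 0 between breeds at 70 d. At 100 d the block leaves out T100 replicate 4. The ratio pairs of other isoforms were not run, since no probe was named for them. Calls between breeds over all probes ran from 0 to 83 at 70 d (17 as reported) and from 0 to 908 at 120 d (5 as reported). All members were well above background on every array. TPM2 was dim all the same, and its calls in Ujumqin were lost under normexp background. TNNC2 and MYLPF sit at the top of the scale.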
